A study of Homo sapiens with 9 samples.

Results

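The mRNA of 10 enzymes of branched-chain amino acid (BCAA) catabolism was followed in 3 human kidney lines. The members were taken as the rows of the deposited count table whose NCBI gene identifiers map to *BCAT1*, *BCAT2*, *BCKDHA*, *BCKDHB*, *DBT*, *BCKDK*, *PPM1K*, *IVD*, *HSD17B10* and *ABAT*. All 10 were found among the 28395 genes of the table. The rule used no measured value, though the list was chosen with earlier results of these data known. The lines were HK2, a proximal tubule line that the study took as normal renal cells, 786-O, a parental line of primary clear cell renal cell carcinoma (ccRCC), and 786-M1A, the metastatic line derived from 786-O by way of lung metastases grown in vivo. They carried no further treatment and were all kept in Plasmax, a medium modelled on the nutrients of human serum. Each line gave 3 RNA-seq libraries. The study calls them independent cultures, while its methods describe replicate dishes, more in number than the libraries analysed here, and do not say which gave a library. The p-values measure the spread between these libraries, part of which may be technical. Normal tubule, primary tumor and metastasis are each held by 1 line, so that these states cannot be told apart from the lines themselves.

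Leucine, isoleucine and valine enter a shared route of breakdown. A transaminase, BCAT1 in the cytosol or BCAT2 in mitochondria, moves their amino group to α-ketoglutarate and yields glutamate and a branched-chain keto acid. The keto acids are then oxidized irreversibly by the branched-chain keto acid dehydrogenase (BCKDH) complex, which the kinase BCKDK switches off by phosphorylation and the phosphatase PPM1K switches on. After this step the carbon skeletons follow separate branches, in which IVD acts on leucine, HSD17B10 on isoleucine and ABAT, best known as the transaminase of the neurotransmitter GABA, is placed on the valine branch. The kidney is among the organs that take part in this breakdown.

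The libraries held between 30212291 and 45362428 counts, and those of a line correlated across genes with Pearson's r between 0.997 and 0.998. No library was a copy of another. Levels are given as counts per 1000000 counts of a library (CPM), with the totals corrected by TMM factors. Of 15 markers of proximal tubule, 10 were above 3 counts in every HK2 library, 9 in parental 786-O and 8 in metastatic 786-M1A, and their summed level was 296 to 299.6 CPM, 365 to 383 CPM and 289 to 315 CPM. These sums hide single markers that went opposite ways. The log2 fold change vs. HK2 was 6.01 in 786-O and 3.52 in 786-M1A for *ANPEP*. It was -5.48 and -4.97 for *GATM*, and -0.18 and -1.51 for *CDH16*. The defining *LRP2*, *SLC22A6* and *SLC22A8* had 0 counts in all 9 libraries, so that none of the lines kept the full profile of a tubule. Of 6 markers of clear cell carcinoma 5 were in the table. They summed to 187 to 197 CPM in HK2, 369 to 391 CPM in 786-O and 634 to 652 CPM in 786-M1A. In 786-O vs. HK2 the log2 fold change was 3.07 for *VEGFA* and 4.87 for *EGLN3*. It was only 0.27 for *ANGPTL4* and -0.02 for *PAX8* (edgeR adjusted p = 0.173 and 0.641), and *PAX8* is also among the tubule markers. *CA9* was at 3 counts or fewer in each library. Markers of fibroblasts summed to 72.9 to 81.7 CPM in HK2, 280 to 348 CPM in 786-O and 20.4 to 24.0 CPM in 786-M1A. Among them *COL1A1* and *COL3A1* were higher in 786-O than in HK2 (log2 fold change 2.44 and 2.23), while *LUM* was lower (-0.62). The part of these markers in the results below was not tested. The markers of leukocytes, of distal tubule and of endothelium each summed to 1.11 CPM or less in every library, and *PTPRC* and *CD3E* were at 0. Such bulk values cannot tell fewer expressing cells from less RNA per cell.

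The 10 members had a mean over libraries of between 103 counts for *ABAT* and 6040 for *BCAT1*, and all passed the minimum mean of 50 counts. *ABAT* passed through the counts of HK2 and had only 4, 6 and 7 counts in the 786-M1A libraries. Between 786-O and HK2, 8 of the 10 differed with an adjusted p under 0.05 in edgeR's quasi-likelihood test, 3 being higher and 5 lower in 786-O. That share was close to the background, as 84.2% of the 12695 genes tested differed, 41.6% higher and 42.6% lower. Between 786-M1A and HK2, 9 of the 10 differed, 2 higher and 7 lower in 786-M1A, beside 84.9% of all genes, 41.6% higher and 43.3% lower. Between 786-M1A and 786-O, 6 members were lower in 786-M1A and 0 were higher, beside 56.0% of all genes tested, 28.0% being lower and 27.9% higher. The libraries of the lines compared did not overlap for 9 members in 786-O vs. HK2, 9 in 786-M1A vs. HK2 and 6 in 786-M1A vs. 786-O, beside 85.5%, 85.0% and 61.6% of all genes tested. The median log2 fold change of the members was -0.12 for 786-O vs. HK2, -0.28 for 786-M1A vs. HK2 and -0.17 for 786-M1A vs. 786-O, and that of all genes tested was -0.01, -0.02 and 0.00. Most differences were small. *ABAT* was the sole member with a difference of at least 2-fold in each comparison, where 22.3%, 25.4% and 6.59% of all genes tested reached that size. The comparisons of both cancer lines with HK2 share the HK2 libraries and are not independent of each other.

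**Figure D1:**
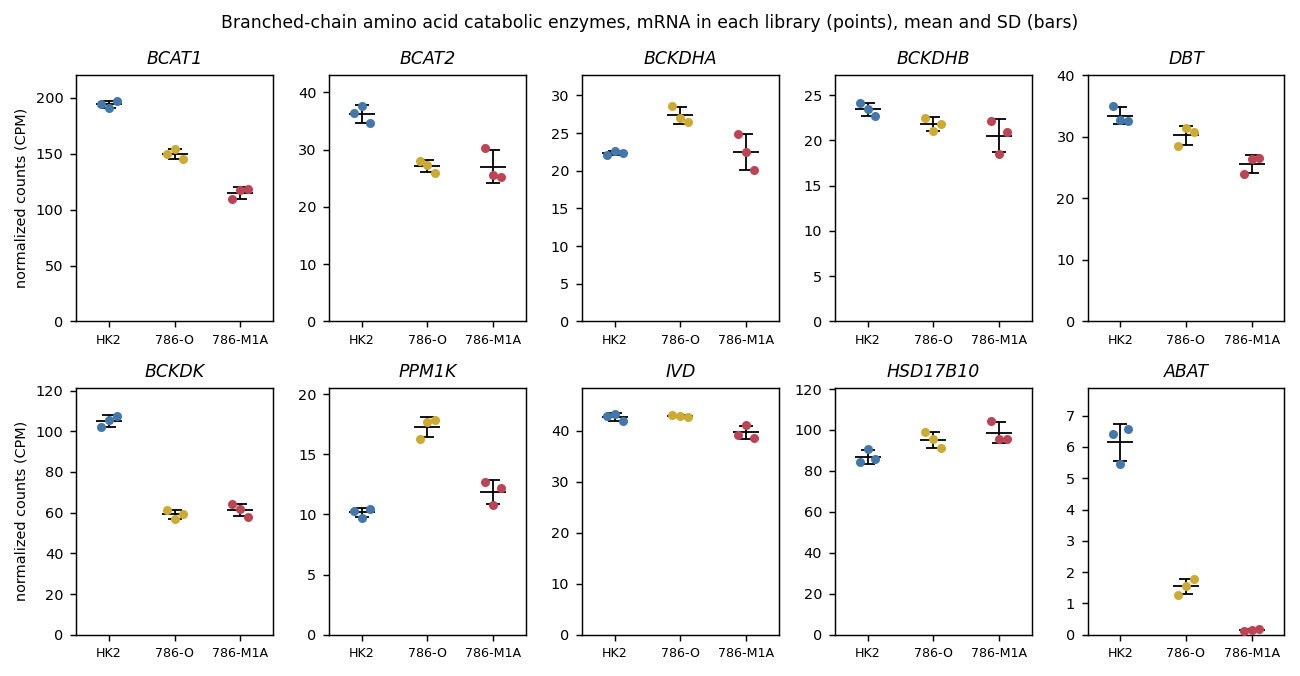
Normalized counts (CPM, linear axes from 0) of the 10 members in HK2, 786-O and 786-M1A, with a point per library and bars for the mean and SD of 3 libraries. *BCAT1* and *ABAT* step down from HK2 through 786-O to 786-M1A, from a mean of 194 CPM to one of 115 CPM for *BCAT1*, while *BCKDK* is at about the same level in both cancer lines.

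**Figure D2:**
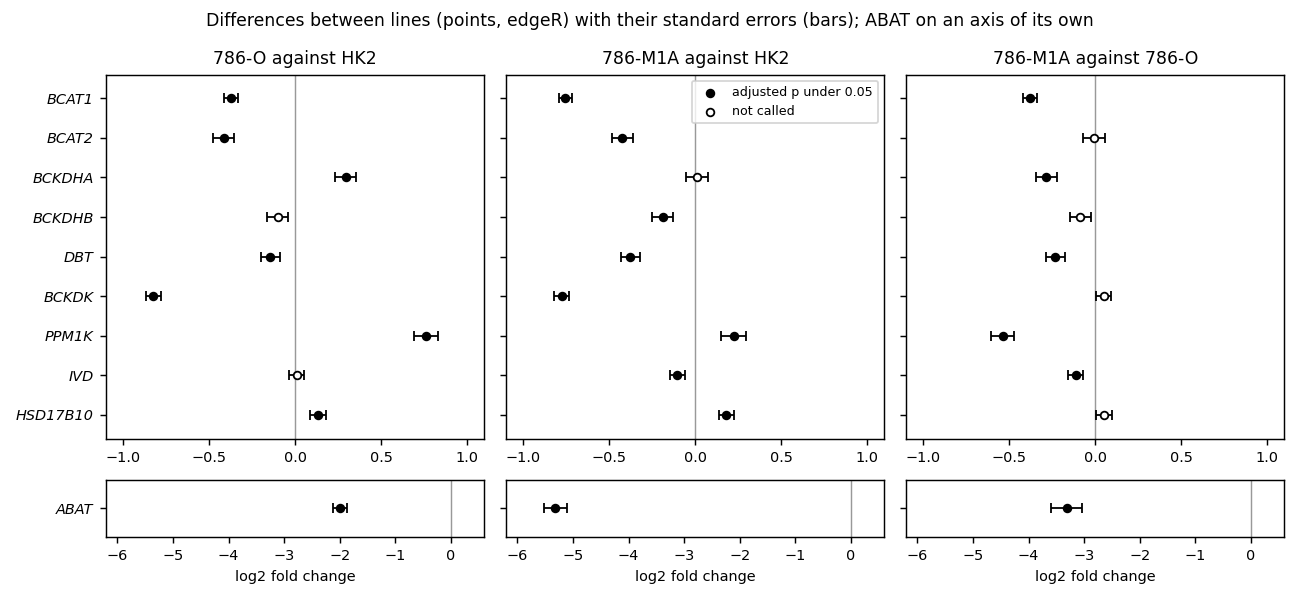
Log2 fold changes of the members in the 3 comparisons (points) with standard errors (bars), filled where the edgeR adjusted p is under 0.05, with *ABAT* on an axis of its own. The bars of *ABAT* in the comparisons of 786-M1A may be too short, as its counts there were few. Apart from *ABAT* all values lie between -0.83 and 0.76, and the points of 786-M1A vs. 786-O lie at or below 0.05.

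*BCAT1* (NCBI gene 586, chromosome 12 of GRCh38, 24810024 to 24949101, minus strand), which encodes the cytosolic transaminase, was the member with the most counts and fell in steps. Its normalized count was 194, 191 and 197 CPM in the HK2 libraries, 150.01, 154 and 145 CPM in 786-O and 109, 117 and 118 CPM in 786-M1A. The 3 lines did not overlap. The log2 fold change was -0.37 for 786-O vs. HK2 (standard error 0.039, edgeR adjusted p = 1.34e-08), -0.76 for 786-M1A vs. HK2 (standard error 0.040, adjusted p = 8.58e-14) and -0.38 for 786-M1A vs. 786-O (standard error 0.040, adjusted p = 4.92e-08). In 786-M1A its mRNA was thus at 0.592 of the level in HK2.

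RefSeq (GRCh38.p14) lists 5 starts for *BCAT1*, and reads counted per gene do not show which was used. The window of the outermost start but one is printed because it holds the E-box CACGTG, the element bound by MYC and MAX, which 7.26% of all promoter windows of 300 bases hold on either strand. It was the 1 window with an E-box among the 17 of 9 members (*BCAT2* had no entry). It lies at chr12:24949052-24949351 on the minus strand and runs from 250 bases before the start to 50 after it, with the motif in capitals. A match describes the letters and no binding.
BCAT1 promoter: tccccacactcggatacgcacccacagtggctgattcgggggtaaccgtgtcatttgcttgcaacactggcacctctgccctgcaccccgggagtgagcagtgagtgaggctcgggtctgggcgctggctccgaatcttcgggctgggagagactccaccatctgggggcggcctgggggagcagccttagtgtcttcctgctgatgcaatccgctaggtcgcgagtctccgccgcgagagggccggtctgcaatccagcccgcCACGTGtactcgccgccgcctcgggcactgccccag

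*BCAT2* (NCBI gene 587, chromosome 19, 48795062 to 48811029, minus strand), the mitochondrial isozyme, was lower in both cancer lines than in HK2. It had 36.5, 37.6 and 34.6 CPM in HK2, 28.0, 27.3 and 26.0 CPM in 786-O and 30.3, 25.6 and 25.1 CPM in 786-M1A. Every library of the cancer lines was below every HK2 library, and 786-M1A replicate 1 stood above all of 786-O. The log2 fold change was -0.42 for 786-O vs. HK2 (standard error 0.062, edgeR adjusted p = 2.63e-06) and -0.42 for 786-M1A vs. HK2 (standard error 0.062, adjusted p = 2.29e-06). Between 786-M1A and 786-O it was -0.01 with a 95% interval of -0.13 to 0.12 (edgeR adjusted p = 0.939). The ratio of *BCAT1* to *BCAT2* counts within a library, in which depth cancels, was on the log2 scale 2.42 ± 0.085 (SD, n = 3) in HK2, 2.47 ± 0.040 in parental 786-O and 2.09 ± 0.21 in metastatic 786-M1A. It did not separate 786-O from HK2 (exact permutation test, p = 0.6) and was lower in every 786-M1A library than in every other (p = 0.1 in both exact tests, the smallest that 3 against 3 allow).

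The BCKDH complex is built from the E1 subunits encoded by *BCKDHA* and *BCKDHB*, the E2 core of *DBT* and the E3 subunit of *DLD*, which is shared with other dehydrogenases. The members of the complex differed little and not in the same direction. *BCKDHA* (NCBI gene 593, chromosome 19, 41397808 to 41425002, plus strand) was highest in 786-O. It had 22.1, 22.6 and 22.3 CPM in HK2, 28.6, 27.0 and 26.4 CPM in 786-O and 24.8, 22.5 and 20.1 CPM in 786-M1A. The 786-O libraries were above all others, and those of HK2 fell within the range of 786-M1A. The log2 fold change was 0.29 for 786-O vs. HK2 (standard error 0.062, edgeR adjusted p = 1.86e-04), -0.28 for 786-M1A vs. 786-O (standard error 0.062, adjusted p = 5.61e-04) and 0.01 for 786-M1A vs. HK2 (95% interval -0.12 to 0.13, adjusted p = 0.905).

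*BCKDHB* (NCBI gene 594, chromosome 6, 80106647 to 80346270, plus strand) ranged from 22.7 to 24.1 CPM in HK2, from 21.0 to 22.5 CPM in 786-O and from 18.5 to 22.1 CPM in 786-M1A. It was lower in 786-M1A than in HK2 (log2 fold change -0.19, standard error 0.061, edgeR adjusted p = 0.00695), a call that was lost without 786-M1A replicate 2 (-0.11, adjusted p = 0.107). It was not called for 786-O vs. HK2 (-0.10, 95% interval -0.22 to 0.02, adjusted p = 0.120) although those libraries did not overlap, nor for 786-M1A vs. 786-O (-0.09, 95% interval -0.21 to 0.03, adjusted p = 0.232). The log2 ratio of *BCKDHA* to *BCKDHB* was -0.07 ± 0.053 (SD, n = 3) in HK2, 0.33 ± 0.048 in parental 786-O and 0.13 ± 0.17 in metastatic 786-M1A. It was higher in 786-O than in HK2 in all libraries (exact permutation test, p = 0.1), and 786-M1A, with the widest spread, overlapped with HK2 (exact p = 0.3) and with 786-O (exact p = 0.2).

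*DBT* (NCBI gene 1629, chromosome 1, 100186919 to 100249834, minus strand) stepped down along the lines, from 32.6 to 35.0 CPM in HK2, through 28.5 to 31.4 CPM in 786-O, to 24.0 to 26.6 CPM in 786-M1A. The log2 fold change was -0.14 for 786-O vs. HK2 (standard error 0.054, edgeR adjusted p = 0.0171), -0.38 for 786-M1A vs. HK2 (standard error 0.055, adjusted p = 1.66e-06) and -0.23 for 786-M1A vs. 786-O (standard error 0.055, adjusted p = 0.00113). The smallest of these, 786-O vs. HK2, was not called without HK2 replicate 1 (adjusted p = 0.0704) or 786-O replicate 1 (0.115). *DLD* had 125 ± 1.66 CPM in HK2, 127 ± 2.97 CPM in parental 786-O and 127 ± 2.32 CPM in metastatic 786-M1A (SD, n = 3), and no comparison was called, with edgeR adjusted p between 0.531 and 0.950.

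The regulators of the complex moved in opposite directions between HK2 and 786-O. *BCKDK* (NCBI gene 10295, chromosome 16, 31106107 to 31112791, plus strand), the kinase that inactivates E1, had 102, 106 and 108 CPM in HK2, 61.4, 57.0 and 59.3 CPM in 786-O and 64.0, 61.9 and 57.8 CPM in 786-M1A. All libraries of both cancer lines were far below those of HK2 and overlapped with each other. The log2 fold change was -0.83 for 786-O vs. HK2 (standard error 0.045, edgeR adjusted p = 1.42e-13) and -0.78 for 786-M1A vs. HK2 (standard error 0.045, adjusted p = 3.81e-13). Between 786-M1A and 786-O it was 0.05 with a 95% interval of -0.04 to 0.14 (edgeR adjusted p = 0.393).

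*PPM1K* (NCBI gene 152926, chromosome 4, 88257620 to 88284769, minus strand), the mitochondrial phosphatase that removes the phosphate again, was highest in 786-O. It had 10.3, 9.74 and 10.5 CPM in HK2, 16.3, 17.7 and 17.8 CPM in 786-O and 12.7, 10.8 and 12.2 CPM in 786-M1A. The lines did not overlap, with 786-M1A just above HK2. The log2 fold change was 0.76 for 786-O vs. HK2 (standard error 0.070, edgeR adjusted p = 1.35e-09), 0.22 for 786-M1A vs. HK2 (standard error 0.074, adjusted p = 0.00820) and -0.54 for 786-M1A vs. 786-O (standard error 0.069, adjusted p = 8.28e-07).

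With the kinase lower and the phosphatase higher, the ratio of *BCKDK* to *PPM1K* counts separated all 3 lines. On the log2 scale it was 3.30, 3.44 and 3.36 in the HK2 libraries, 1.91, 1.69 and 1.73 in 786-O and 2.33, 2.52 and 2.24 in 786-M1A. HK2 was highest, 786-O lowest and 786-M1A between them without overlap. The mean difference was -1.59 for 786-O vs. HK2, a ratio 3.01-fold lower, and 0.59 for 786-M1A vs. 786-O, against pooled SDs of 0.096 and 0.13. All 3 comparisons gave p = 0.1 in the exact permutation test, the smallest possible. These are ratios of transcripts, and the phosphorylation of the complex was not measured here.

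**Figure D3:**
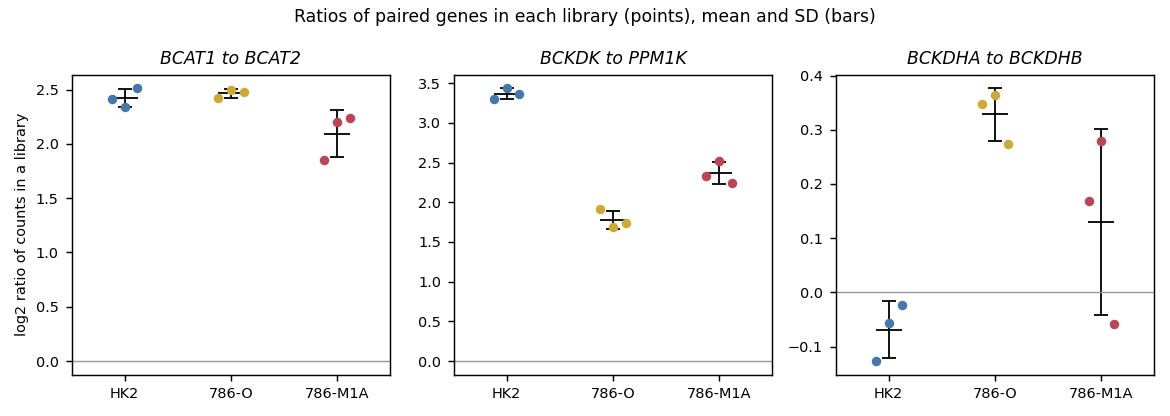
Log2 ratio of the counts of paired genes in each library (points), with the mean and SD of 3 libraries per line (bars), and a grey line at a ratio of equal counts. The ratio of *BCKDK* to *PPM1K* separates the lines, with means of 3.37 in HK2, 1.78 in parental 786-O and 2.37 in metastatic 786-M1A, while that of *BCKDHA* to *BCKDHB* overlaps for 786-M1A and 786-O.

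The promoters of this pair are shown because the genes moved apart. The motif searched was the core of the element bound by hypoxia-inducible factors, ACGTG or GCGTG on either strand, which an E-box also contains. At least 1 match is held by 48.4% of the 35116 RefSeq promoter windows of 300 bases and by 10 of the 17 windows of the members. In the sequences, each 5′ to 3′ on the strand of the gene, capitals mark the matches. That of *BCKDK* lies at chr16:31108136-31108435 and has 4 matches, and that of *PPM1K* at chr4:88284512-88284811 has 0. A lack of these letters in the window says nothing of the factor.
BCKDK promoter: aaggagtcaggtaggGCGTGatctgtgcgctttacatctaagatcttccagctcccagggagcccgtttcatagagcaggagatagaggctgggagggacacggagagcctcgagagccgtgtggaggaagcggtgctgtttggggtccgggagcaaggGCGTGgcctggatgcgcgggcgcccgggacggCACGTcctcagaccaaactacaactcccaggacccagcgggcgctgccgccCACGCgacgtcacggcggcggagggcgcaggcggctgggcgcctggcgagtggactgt
PPM1K promoter: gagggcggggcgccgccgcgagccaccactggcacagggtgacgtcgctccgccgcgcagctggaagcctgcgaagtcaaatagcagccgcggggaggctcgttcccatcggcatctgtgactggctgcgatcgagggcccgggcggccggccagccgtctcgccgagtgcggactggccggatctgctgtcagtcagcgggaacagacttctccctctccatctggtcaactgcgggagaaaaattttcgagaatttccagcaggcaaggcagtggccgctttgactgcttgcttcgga

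Both members that act on acyl-CoA, *IVD* and *HSD17B10*, differed little between the lines. *IVD* (NCBI gene 3712, chromosome 15, 40405485 to 40435947, plus strand) encodes isovaleryl-CoA dehydrogenase of the leucine branch. It ranged from 41.9 to 43.3 CPM in HK2, from 42.7 to 43.2 CPM in 786-O and from 38.7 to 41.2 CPM in 786-M1A. Between 786-O and HK2 the log2 fold change was 0.01 with a 95% interval of -0.08 to 0.09 (edgeR adjusted p = 0.860). In 786-M1A it was lower by a log2 fold change of -0.11 vs. HK2 (standard error 0.044, edgeR adjusted p = 0.0300) and of -0.11 vs. 786-O (standard error 0.043, adjusted p = 0.0308). These were the least stable calls among the members. With DESeq2 the adjusted p was 0.0533 and 0.0657, respectively, and without a filter on low counts it was 0.175 and 0.0790. The call vs. HK2 was also lost when only the 2 lines were fitted (0.0901), and without replicate 1 or 2 of HK2, 1 or 2 of 786-O or 1 or 3 of 786-M1A (edgeR adjusted p between 0.0541 and 0.175). The call vs. 786-O was lost without any of the 786-O replicates or without 1 or 3 of 786-M1A (between 0.0576 and 0.157).

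*HSD17B10* (NCBI gene 3028, chromosome X, 53431258 to 53434370, minus strand) encodes the dehydrogenase of the isoleucine branch, which is also a subunit of mitochondrial RNase P. It ranged from 84.2 to 90.9 CPM in HK2, from 91.2 to 98.8 CPM in 786-O and from 95.5 to 105 CPM in 786-M1A. It was higher than in HK2 by 0.13 on the log2 scale in 786-O (edgeR adjusted p = 0.0120, standard error 0.046) and by 0.18 in 786-M1A (standard error 0.046, adjusted p = 0.00101). The former was not called under upper-quartile scaling (adjusted p = 0.0835), without HK2 replicate 1 (0.0754) or 3 (0.0610) or without 786-O replicate 1 (0.0598). For 786-M1A vs. 786-O the value was 0.05 with a 95% interval of -0.04 to 0.14 (edgeR adjusted p = 0.359).

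*ABAT* (NCBI gene 18, chromosome 16, 8674596 to 8784575, plus strand) had the largest differences of the 10. It had 199, 220 and 304 counts in the HK2 libraries, 57, 59 and 75 in 786-O and 4, 6 and 7 in 786-M1A. Normalized, these were 6.41, 5.47 and 6.57 CPM in HK2, 1.29, 1.57 and 1.77 CPM in 786-O and 0.111, 0.156 and 0.185 CPM in 786-M1A, where 3 counts are between 0.0782 and 0.0830 CPM. The lines did not overlap, and 786-M1A was close to that floor. The log2 fold change was -1.997 for 786-O vs. HK2 (standard error 0.12, edgeR adjusted p = 1.91e-12), -5.31 for 786-M1A vs. HK2 (standard error 0.21, adjusted p = 3.50e-16) and -3.32 for 786-M1A vs. 786-O (standard error 0.28, adjusted p = 1.69e-09). The level in 786-O was thus 3.99-fold below HK2, and that in 786-M1A 39.8-fold. With 4, 6 and 7 counts behind 786-M1A, the size of its differences is uncertain. Their standard errors came from the F statistic and may be too small at such counts. With a minimum of 10 counts in every library *ABAT* was not tested, as 786-M1A lay under it. It was also not tested for 786-M1A vs. 786-O when only those 2 lines were fitted, since without HK2 its mean fell under 50 counts.

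Of the 4 tested genes nearest to *ABAT* on chromosome 16, 2 on each side, 1 was lower and 3 were higher in both cancer lines than in HK2. Of all genes tested, 84.2% differed in 786-O vs. HK2, 41.6% higher and 42.6% lower. In 786-M1A vs. HK2 84.9% differed, 41.6% higher and 43.3% lower. *METTL22*, next before it, had 9.66 ± 0.247 CPM in HK2 (n = 3, SD), 7.66 ± 0.459 CPM in parental 786-O and 8.33 ± 0.462 CPM in metastatic 786-M1A (log2 fold change -0.33 and -0.21 vs. HK2, edgeR adjusted p = 3.41e-04 and 0.0119). *TMEM186*, next after it, had 5.21 ± 0.176 CPM, 7.26 ± 0.547 CPM and 7.34 ± 0.362 CPM, and was higher in both cancer lines than in HK2 (log2 fold change 0.48 and 0.49, edgeR adjusted p = 2.52e-05 and 2.01e-05). The differences were larger for the outer genes, with log2 fold changes of 1.01 in 786-O and 1.16 in 786-M1A for *EEF2KMT*, before *ABAT*, and of 1.05 and 1.19 for *PMM2*, after it. *EEF2KMT* is no close neighbour, as it ends at position 5097795 and *ABAT* starts at 8674596. In GENCODE release 44 the end of *TMEM186* overlaps *ABAT* on the opposite strand, while in RefSeq they lie apart. The strand setting of the counting is not given in the sources used here, and reads shared by the genes were not tested.

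RefSeq lists 4 starts for *ABAT*. The outermost and the next are printed, as they are the windows of the member that changed most and differ in composition. The former, at chr16:8674367-8674666, is 76.3% G and C with 32 CpG dinucleotides and has 0 matches of the core motif above. The latter, at chr16:8712587-8712886, is 52.7% G and C with 12 CpG dinucleotides and has 1 match, in capitals. The median over all windows was 58.7% and 14 CpG dinucleotides. The counts do not show which start was in use in HK2, and methylation was not measured here.
ABAT promoter, outermost start: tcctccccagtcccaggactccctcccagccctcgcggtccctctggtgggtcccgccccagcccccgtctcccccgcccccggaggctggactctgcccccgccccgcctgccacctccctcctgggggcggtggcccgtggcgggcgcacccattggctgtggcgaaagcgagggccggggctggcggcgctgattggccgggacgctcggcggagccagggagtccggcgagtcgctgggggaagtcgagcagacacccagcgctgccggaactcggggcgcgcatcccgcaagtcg
ABAT promoter, next start: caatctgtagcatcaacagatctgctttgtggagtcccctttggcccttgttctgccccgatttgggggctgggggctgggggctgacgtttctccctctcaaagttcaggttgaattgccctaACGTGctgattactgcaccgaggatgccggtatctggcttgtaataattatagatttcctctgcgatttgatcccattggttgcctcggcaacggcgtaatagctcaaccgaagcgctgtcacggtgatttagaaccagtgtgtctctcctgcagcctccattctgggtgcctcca

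Levels of different genes can be compared only per length, here as CPM per kilobase of the union of annotated exons. On this scale *HSD17B10* was highest, at 30.8 ± 1.24 in HK2, 33.7 ± 1.35 in parental 786-O and 34.9 ± 1.81 in metastatic 786-M1A (SD, n = 3). *BCKDK* followed with 27.1 ± 0.720 in HK2, 15.3 ± 0.557 in parental 786-O and 15.8 ± 0.814 in metastatic 786-M1A, and *BCAT1* with 17.0 ± 0.280, 13.1 ± 0.416 and 10.1 ± 0.444. *PPM1K* at 0.894 to 1.52 and *ABAT* at 0.0155 to 0.633 were the lowest of the 10 in each line. The kinase exceeded the phosphatase 30.3-fold in HK2, 10.1-fold in 786-O and 15.1-fold in 786-M1A. The place of *BCAT1* rested on the length used, and in 786-M1A *BCKDHA* was within the spread of it, at 9.99 ± 1.05. With canonical transcripts *BCAT1* was below *BCAT2* in every line and, in 786-M1A, at 12.3 ± 0.544 beside 12.9 ± 1.36 for *BCKDHA*. *BCAT1* was 2.14-fold above *BCAT2* in HK2 with the union of exons and at 0.899 of it with the canonical transcripts, so that neither transaminase can be called the higher.

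Spread between the libraries of a line was widest in 786-M1A. The coefficient of variation of the members had a median of 3.36% in HK2, 3.88% in parental 786-O and 7.06% in metastatic 786-M1A. *ABAT* had the widest spread in each line, up to 24.9% in 786-M1A, where it had the fewest counts, and *BCAT2* and *BCKDHA* reached 10.6% and 10.5% there.

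The rest of the pathway was followed in 39 further genes of uptake, the 3 branches and neighbouring reactions. Between 786-O and HK2, 13 of the 39 were higher and 19 lower, a share of 82.1% called beside 84.2% of all genes tested, with a median log2 fold change of -0.08. Between 786-M1A and HK2, 12 were higher and 20 lower, with 82.1% called beside 84.9% of all genes tested and a median of -0.11. For 786-M1A vs. 786-O, 10 were higher and 12 lower, with 56.4% called beside 56.0% and a median of -0.04. Genes of the pathway thus lay on both sides in every comparison, and the shares called were close to the background.

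Of the 3 transport genes, 2 were higher in both cancer lines than in HK2, beside 41.6% of all genes tested in each comparison, and the other was not called. *SLC7A5*, which encodes the light chain of the large neutral amino acid transporter, had 163 ± 8.18 CPM in HK2, 798 ± 37.3 CPM in parental 786-O and 977 ± 33.4 CPM in metastatic 786-M1A (SD, n = 3), and every comparison was called, with log2 fold changes of 2.29, 2.58 and, for 786-M1A vs. 786-O, 0.29 (edgeR adjusted p = 3.32e-06). Its heavy chain *SLC3A2* had 84.8 ± 2.96 CPM, 183 ± 6.93 CPM and 215 ± 5.17 CPM. *SLC25A44*, the carrier that brings BCAAs into mitochondria, was not called in any comparison, with 52.6 to 55.0 CPM as means of the lines (edgeR adjusted p between 0.172 and 0.633), although 786-M1A vs. HK2 was called without 786-M1A replicate 1 (0.11, adjusted p = 0.0300).

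On the leucine branch after IVD, 3 of 4 genes were lower and 1 higher in 786-O than in HK2, beside 42.6% and 41.6% of all genes tested. The higher was *AUH*, with log2 fold changes of 0.25 in 786-O and 0.47 in 786-M1A vs. HK2 (edgeR adjusted p = 0.00127 and 7.82e-07). Both subunits of methylcrotonyl-CoA carboxylase were among the lower, *MCCC2* at -0.93 on the log2 scale (standard error 0.047, edgeR adjusted p = 4.18e-14) and *MCCC1* with -0.29 (standard error 0.044, adjusted p = 3.04e-06). In 786-M1A vs. HK2 these subunits had -1.13 and -0.40. *MCCC1* was also called for 786-M1A vs. 786-O (-0.11, adjusted p = 0.0459), but this was lost with RLE scaling (0.0614), DESeq2 (0.101) or no filter (0.114), and on leaving out any library other than 786-M1A replicate 1 (between 0.0553 and 0.255).

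On the isoleucine branch 3 of 9 genes were higher and 5 lower in 786-O than in HK2, beside 41.6% and 42.6% of all genes tested. *ACADSB*, the acyl-CoA dehydrogenase that stands where IVD stands for leucine, had 12.5 ± 0.763 CPM in HK2, 23.6 ± 1.496 CPM in parental 786-O and 18.02 ± 0.897 CPM in metastatic 786-M1A (SD, n = 3). It was thus highest in 786-O, with a log2 fold change of 0.92 vs. HK2 (edgeR adjusted p = 1.78e-11) and of -0.39 for 786-M1A vs. 786-O (adjusted p = 1.78e-05). *ACAA2*, a mitochondrial thiolase, was the lowest of the pathway in both comparisons with HK2 apart from *ABAT* in 786-M1A, with 80.0 ± 2.39 CPM in HK2, 13.0 ± 1.57 CPM in parental 786-O and 8.50 ± 0.359 CPM in metastatic 786-M1A. Its log2 fold change was -2.63 for 786-O vs. HK2 and -3.23 for 786-M1A vs. HK2 (edgeR adjusted p = 1.29e-19 and 1.17e-20). *EHHADH*, the peroxisomal bifunctional enzyme, stepped down from 40.3 ± 1.71 CPM through 26.5 ± 0.353 CPM to 21.5 ± 0.189 CPM, while *ACAA1*, a peroxisomal thiolase, stepped up from 26.5 ± 0.410 CPM through 29.6 ± 0.567 CPM to 39.9 ± 1.92 CPM, and both were called in all 3 comparisons.

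On the valine branch, where *ABAT* is placed, *ALDH6A1*, which encodes methylmalonate semialdehyde dehydrogenase, fell as well. It had 15.1 ± 0.276 CPM in HK2, 4.50 ± 0.172 CPM in parental 786-O and 3.84 ± 0.496 CPM in metastatic 786-M1A (SD, n = 3), with log2 fold changes of -1.74 and -1.97 vs. HK2 (edgeR adjusted p = 8.74e-15 and 1.93e-15). The 786-M1A vs. 786-O comparison was not called (-0.23, edgeR adjusted p = 0.0575), except without 786-M1A replicate 3 (-0.33, adjusted p = 0.0120). *HIBADH*, which acts just before it, was higher in both cancer lines, with 51.7 ± 0.187 CPM, 73.5 ± 0.771 CPM and 57.3 ± 1.87 CPM in the same order of lines. *ACAD8*, the acyl-CoA dehydrogenase of this branch, had 13.3 ± 1.35 CPM, 7.27 ± 0.579 CPM and 8.81 ± 0.641 CPM, and its rise from 786-O to 786-M1A (0.28, edgeR adjusted p = 0.0123) was lost without 786-M1A replicate 2 (0.0648).

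Where the isoleucine and valine branches end in propionyl-CoA, 3 of 6 genes were lower and 1 higher in 786-O than in HK2, beside 42.6% and 41.6% of all genes tested. *MMUT*, the mutase that makes succinyl-CoA, had 42.5 ± 0.618 CPM in HK2, 22.6 ± 0.876 CPM in parental 786-O and 22.0 ± 0.857 CPM in metastatic 786-M1A (SD, n = 3). Its log2 fold change was -0.91 for 786-O vs. HK2 (edgeR adjusted p = 1.15e-13), and 786-M1A vs. 786-O was not called (adjusted p = 0.570). *PCCA*, a subunit of propionyl-CoA carboxylase, fell further in 786-M1A, from 14.9 ± 0.941 CPM in HK2 and 11.8 ± 0.577 CPM in 786-O to 8.51 ± 0.750 CPM (786-M1A vs. 786-O, log2 fold change -0.47, edgeR adjusted p = 2.38e-05).

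Outside transport, the highest log2 fold changes of the wider pathway in 786-O vs. HK2 were those of 2 oxidizing enzymes. *ALDH2*, an aldehyde dehydrogenase, had 0.288 ± 0.0516 CPM in HK2, 12.03 ± 0.657 CPM in parental 786-O and 30.6 ± 2.69 CPM in metastatic 786-M1A (SD, n = 3), and *AOX1*, aldehyde oxidase, 1.78 ± 0.119 CPM, 5.61 ± 0.391 CPM and 8.89 ± 0.231 CPM. Of *ALDH2* only 8, 14 and 12 counts lay behind the HK2 values. The size of its log2 fold change of 5.36 for 786-O vs. HK2 is thus uncertain. The standard error of 0.15 came from the F statistic and may be too small at such counts. *ALDH2* passed the filter through the cancer lines and was not tested with a minimum of 10 counts in every library. *ALDH7A1* went the other way, with 81.0 ± 3.71 CPM in HK2, 35.1 ± 1.09 CPM in parental 786-O and 31.3 ± 1.03 CPM in metastatic 786-M1A. *OXCT1*, an enzyme of ketone bodies, was higher than in HK2 by 1.30 on the log2 scale in 786-O (edgeR adjusted p = 1.05e-17). *ACAT2*, a cytosolic thiolase, was lower there, at -0.73 (edgeR adjusted p = 1.24e-12).

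**Figure D4:**
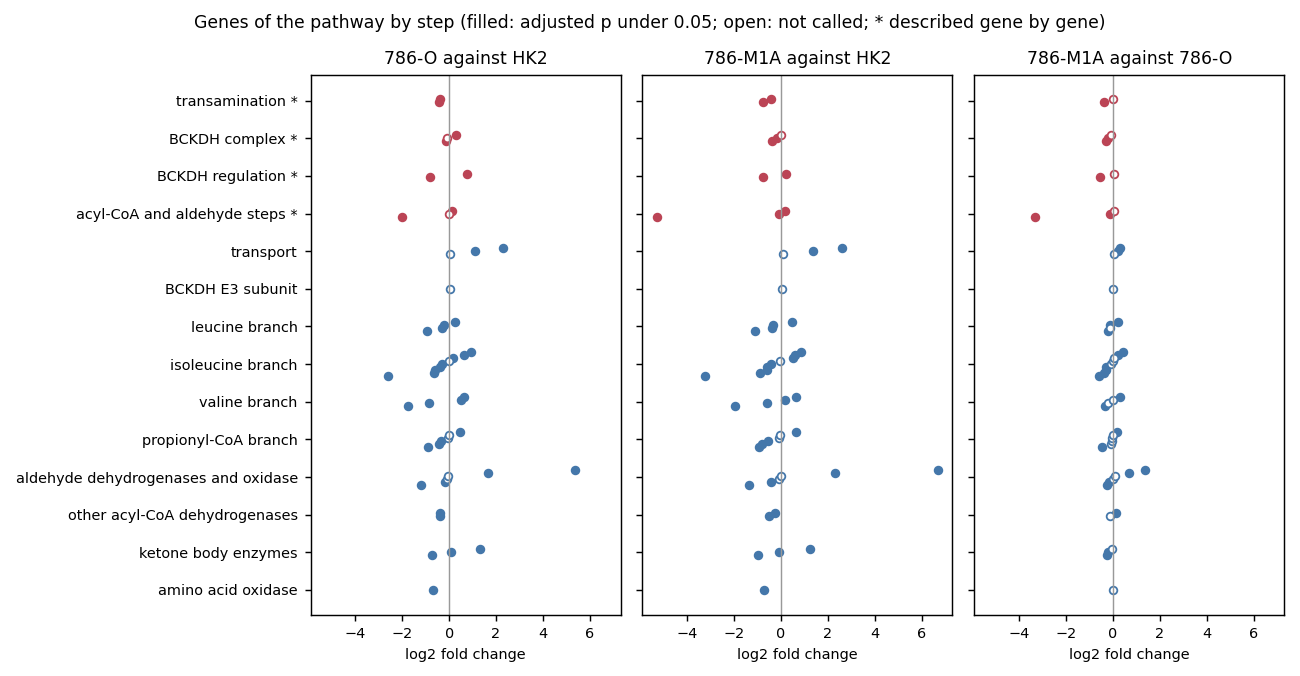
Log2 fold changes of the 10 members (red) and 39 further genes tested (blue) by step of the pathway in the 3 comparisons, with a point per gene, filled where the edgeR adjusted p is under 0.05. Transport genes lie above 0, the transaminases lie below 0 vs. HK2, and the further genes of the leucine, isoleucine, valine and propionyl-CoA branches lie on both sides, between -3.23 and 0.92.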

How the data were processed

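The sequencing libraries were TruSeq Stranded mRNA, 3 for each of HK2, 786-O and 786-M1A, grouped by their labels. The authors counted reads per gene on hg38 with Rsubread (featureCounts is the counter per the labels) and deposited whole-number counts with no normalization or filter. Their annotation version and use of the strand are not given in the sources used here. The filter, log2 transformation, VSN and limma of the study are not part of the deposited counts.

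Counts were normalized by TMM in edgeR 4.0.16 (R 4.3.3), and genes averaging 50 counts or more over the libraries (12695, by the filter of the study) were tested in a single fit of its robust quasi-likelihood model over 9 libraries. The Benjamini-Hochberg adjustment of p covered every tested gene (threshold 0.05). Standard errors came from the log2 fold change and the F statistic, and 95% intervals assume normality. Where a line had few counts, such standard errors may be too small. Ratios were taken on counts with 0.5 added, and those of the members were compared by exact two-sided permutation tests. Scripts were tested on simulated counts.

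Symbols of 27745 identifiers came from RefSeq (GRCh38.p14), which also gave the promoters, and positions and exon lengths from GENCODE release 44. The clear cell marker *NDUFA4L2* had no matching symbol and was not used here. The depth was between 30212291 and 45362428 counts, at which 3 counts are between 0.0649 and 0.0966 CPM. This floor covers counting error only.

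The alternatives were RLE and upper-quartile scaling, DESeq2 1.42.0, voom of limma 3.58.1, no filter, at least 10 counts in every library, a fit of just the 2 lines in question, a replicate block, and omission of single libraries in turn. The members and lists were chosen with earlier results of these data known. Further genes named were, per comparison, the 5 highest and 5 lowest called without overlap between libraries, with *DLD*, *SLC7A5*, *SLC25A44*, *MCCC1*, *MCCC2* and *ACADSB* always. The neighbours of *ABAT* were chosen by position, and *HMGCS1* and the partner subunits of the closing section after seeing values. The wider list was the KEGG degradation pathway as listed by the study, with uptake and cobalamin genes added.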

Additional observations from a re-analysis of the deposited data

Results flagged for a closer look

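*HMGCS1*, the cytosolic synthase of the sterol route, was singled out because both cancer lines differed from HK2 in opposite directions. Its log2 fold change vs. HK2 was 0.10 in 786-O and -0.11 in 786-M1A, and the difference between them was -0.20 (edgeR adjusted p = 5.65e-05, lower in 3 of 3 libraries of 786-M1A). None of the 10 members was called in opposite directions in the 2 cancer lines.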

How the results depend on the processing

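No called direction of a member reversed under any alternative. The sign of the uncalled values nearest to 0 did change, with log2 fold changes between -0.09 and 0.05 for *BCAT2* in 786-M1A vs. 786-O, between -0.06 and 0.10 for *BCKDHA* in 786-M1A vs. HK2 and between -0.03 and 0.03 for *IVD* in 786-O vs. HK2, none of them called. Over all alternatives 482 of 506 values of the members kept their call, 23 lost it and 1 gained it (*BCKDHB* in 786-O vs. HK2 under upper-quartile scaling, edgeR adjusted p = 0.0363). The lost calls were those of *DBT*, *HSD17B10*, *BCKDHB* and *IVD* given above. Of the wider pathway, 1002 of 1017 values kept their call, 13 lost it, 2 gained it and 0 reversed a called direction. The number of members called for 786-O vs. HK2 was between 6 and 8, the 6 being without HK2 replicate 1 or 786-O replicate 1. It was between 8 and 9 for 786-M1A vs. HK2 and between 5 and 6 for 786-M1A vs. 786-O.

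With the length of the canonical transcript in place of the union of exons, an alternative chosen after seeing the data, the level of *BCAT1* over *BCAT2* was 0.899 in HK2, 0.927 in parental 786-O and 0.715 in metastatic 786-M1A. That of *BCKDHA* over *BCKDHB* was 2.01, 2.64 and 2.31 in the same order, and that of *BCKDK* over *PPM1K* was 32.0 in HK2.

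The same replicate numbers were not taken as pairs, as deviations of same-numbered libraries correlated between -0.167 and 0.214 and not all above 0.1, the limit set. Between 786-M1A and 786-O each library correlated best with its own number, a hint from the data only. With 3 libraries per line these correlations cannot settle whether the libraries were paired. With the replicate block 8, 9 and 6 members were called in the 3 comparisons, as without it. Depth limited *ABAT* in 786-M1A, at 4 to 7 counts per library.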

Other observations

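Subunits that work as partners did not change to the same extent vs. HK2 in 3 enzymes of the wider pathway, which were chosen after their values were seen. The log2 ratio of *MCCC1* to *MCCC2* counts was -0.95 ± 0.033 (SD, n = 3) in HK2, -0.32 ± 0.030 in parental 786-O and -0.23 ± 0.14 in metastatic 786-M1A. That of *PCCA* to *PCCB*, the subunits of propionyl-CoA carboxylase, was -1.97 ± 0.056, -2.29 ± 0.096 and -2.76 ± 0.11 in the same order. That of *HADHA* to *HADHB*, the subunits of the mitochondrial trifunctional protein, was 1.02 ± 0.014, 1.38 ± 0.075 and 1.45 ± 0.040. In GENCODE release 44 *HADHA* and *HADHB* overlap each other on opposite strands, and *PCCA* and *PCCB* each overlap other genes so. Reads shared by such genes were not tested. For each of the 3 pairs both cancer lines lay apart from HK2 in all libraries. Between 786-M1A and 786-O the ratio of *PCCA* to *PCCB* was apart and the others were not. As the pairs were chosen on these same values, this is a description and no test is given. Of all single genes tested, 85.5% did not overlap in 786-O vs. HK2, 85.0% in 786-M1A vs. HK2 and 61.6% in 786-M1A vs. 786-O.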
